A study of Homo sapiens with 20 samples.

Results

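The genes of homologous recombination and Fanconi repair were followed in OPM2, an established line of human multiple myeloma cells from bone marrow, under histone deacetylase (HDAC) inhibitors. The members are a given list of 39 DNA repair and checkpoint genes, found by symbol among 78932 gene identifiers, of which 20957 had enough counts to be tested. All 39 were found and all 39 passed the filter on low counts. There were 20 libraries in 10 groups of 2, which the labels call independent biological replicates. One group had DMSO, the vehicle, with no harvest time given. The others had panobinostat at 10 nM, romidepsin at 10 nM or ricolinostat at 100 nM, each harvested after 2, 5 and 20 h. For ricolinostat the treatment field reads 10 nM, against 100 nM in titles, protocol and design, and the batch is given as unknown. Panobinostat is a hydroxamic acid that blocks many HDACs, romidepsin a cyclic depsipeptide that acts mainly on class I enzymes, and ricolinostat a hydroxamic acid that prefers HDAC6. All groups are the same line, so nothing here speaks of other myeloma cells. Time in culture and inhibitor cannot be told apart in a comparison with DMSO or between the times of an inhibitor. Levels are CPM, read counts scaled for the depth of each library, and pairs of levels are the 2 libraries of a group. Changes are log2 fold changes ± SE from an edgeR quasi-likelihood fit with 2 libraries per group. A gene is called higher or lower, or said to have risen or fallen, where its adjusted p was under 0.05.

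Homologous recombination repairs broken DNA by copying an intact sister molecule. Nucleases trim the broken ends, the kinases ATM and ATR signal to the cell cycle through CHEK2 and CHEK1, and the BRCA proteins act on the trimmed ends together with complexes built from the paralogs RAD51B, RAD51C, RAD51D, XRCC2 and XRCC3. The Fanconi pathway frees strands that a crosslink has joined: a core complex attaches ubiquitin to FANCD2 and FANCI, which then call in nucleases and the recombination proteins. Many of these genes are transcribed mostly in S phase and G2, when a sister molecule is present, and proliferating myeloma lines express them.

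Total counts per library ran from 17264640 to 29088868, and each of the 39 genes had at least 28 counts in every library. The labelled cell type was checked by marker lists. Summed plasma cell markers (10 genes, led by IRF4) were at 5473 to 5494 CPM in DMSO and at 426 to 436 CPM at 20 h of panobinostat, 1033 to 1048 of romidepsin and 4080 to 4084 of ricolinostat. T and NK, myeloid, erythroid, stromal and epithelial markers were at or near 0 in DMSO apart from NCAM1 (174 CPM), and at 20 h COL1A1 was at 34.1 CPM with panobinostat and 25.5 CPM with romidepsin. Of 22 markers of S phase and G2/M, 4 rose and 16 fell at 2 h of panobinostat, 3 and 18 at 5 h and 2 and 19 at 20 h. The counts were 2 and 4, 0 and 14 and 1 and 20 at 2, 5 and 20 h of romidepsin and 5 and 10, 1 and 16 and 2 and 13 of ricolinostat. Of all genes tested 20.8% rose and 18.1% fell at 2 h and 30.7% and 25.9% at 5 h of panobinostat. The shares at 2 and 5 h were 3.55% and 4.62% and 13.0% and 16.5% with romidepsin. With ricolinostat they were 16.9% and 14.5% and 18.8% and 15.3%. At 20 h 32.3%, 29.9% and 16.4% of all genes tested were lower with panobinostat, romidepsin and ricolinostat, and the marker medians were -1.14, -1.04 and -0.22. At 20 h of each inhibitor more of the markers and more of the repair genes were lower than higher. At 5 h of romidepsin 0 markers rose and 14 fell where 9 repair genes were higher and 6 lower. With another scaling (DESeq2-type size factors) 6 repair genes were higher and 10 lower. With the replicate number as a block 7 were higher and 8 lower. The part of these markers in the results was not tested. Fewer cells in S phase and less RNA per cell cannot be told apart in bulk RNA. At 2 h of panobinostat the pair of libraries stood further apart (chi-square 5.92 per degree of freedom) than any other pair (2.33 to 3.99).

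Repair genes changed in both directions, and at 20 h of each inhibitor most of those that changed were lower. With panobinostat, 8 of the 39 genes were higher and 18 lower, against 20.8% and 18.1% of all genes tested at 2 h. At 5 h 15 were higher and 20 lower (30.7% and 25.9% of all genes tested), and at 20 h 11 and 23 (40.8% and 32.3%). The median change of the 39 was -0.20, -0.25 and -0.29, beside 0.01, 0.12 and 0.25 for all genes tested.

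At 2 h of romidepsin 4 genes were higher and 2 lower (3.55% and 4.62% of all genes), at 5 h 9 and 6 (13.0% and 16.5%), and at 20 h 8 and 26 (38.6% and 29.9%). Its medians were 0.01, -0.03 and -0.52, beside 0.00, 0.02 and 0.22 for all genes. With ricolinostat 10, 8 and 2 of the 39 were higher and 14, 14 and 19 lower at 2, 5 and 20 h, against 16.9%, 18.8% and 14.7% of all genes higher and 14.5%, 15.3% and 16.4% lower. Its medians stayed small (-0.07, -0.04 and -0.15, beside 0.00, 0.02 and 0.03 for all genes). Some of these counts changed when 1 library was left out, which leaves 1 library in a group and weakens the test. At 2 h of romidepsin 1 gene was higher without DMSO replicate 2 or romidepsin 2 h replicate 1, and 1 was lower whichever of the 4 libraries compared was left out. At 5 h of romidepsin 2 were lower without DMSO replicate 2. At 20 h of ricolinostat 1 was higher without DMSO replicate 1 or ricolinostat 20 h replicate 2 and 0 without replicate 1, and 12 were lower without replicate 2.

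**Figure D1:**
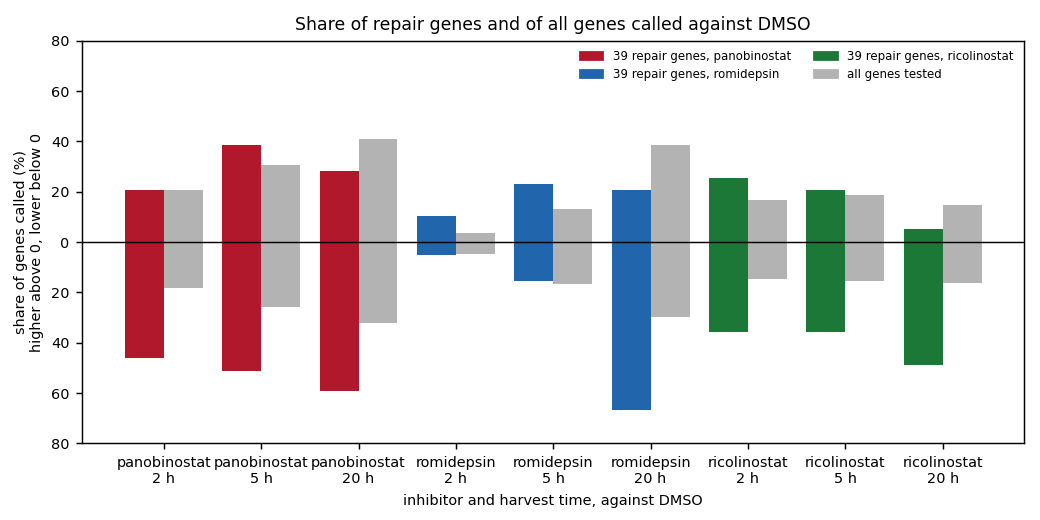
Share of the 39 repair genes (coloured bars) and of all 20957 genes tested (grey bars) called higher (above 0) or lower (below 0) against DMSO at an adjusted p under 0.05, in percent, for each inhibitor and harvest time. At 20 h the grey bars are longer above 0 than below with panobinostat and romidepsin, while the coloured bars are longer below.

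The split depended on the scaling. With library size in place of TMM the median of all genes at 20 h moved from 0.25 to 0.56 with panobinostat and from 0.22 to 0.46 with romidepsin. The split of the 39 then became 16 higher and 18 lower at 20 h of panobinostat, 16 and 2 at 5 h of romidepsin, 5 and 1 at 2 h of romidepsin, 10 and 11 at 5 h and 6 and 12 at 20 h of ricolinostat. In the same order all genes tested gave 10309 and 5332, 4212 and 1699, 1187 and 622, 4354 and 2925, and 4389 and 2242. The median of the 39 minus that of all genes was -0.54 at 20 h of panobinostat with either scaling. At 20 h of romidepsin it was -0.74 with either. A change of scaling moves all genes by nearly the same amount. This difference could thus hardly move, and its agreement between scalings is no support for the split. With DESeq2-type size factors the split of the 39 became 3 and 3 at 2 h and 6 and 10 at 5 h of romidepsin. All genes tested gave 624 and 1194 and 2447 and 4154 there. At 20 h of panobinostat the direction of ATR, ATM, POLQ, BRCA2, BRIP1, XRCC3 and RAD54L flipped with library size, as did that of ATM, POLQ and FANCA at 20 h of romidepsin. Of these, ATR, ATM, POLQ and BRIP1 with panobinostat and ATM and FANCA with romidepsin passed the test on the TMM scale, and the others did not. With library size RAD54L, POLQ, BRCA2 and XRCC3 passed as higher with panobinostat (edgeR adjusted p = 0.003, 0.024, 7.2e-04 and 4.5e-04). So did POLQ with romidepsin (edgeR adjusted p = 0.038). POLQ at 20 h of panobinostat was thus called lower with TMM and higher with library size.

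Counted with a change of at least 1.5-fold beside the adjusted p, the members higher and lower are given with the shares of all genes tested in brackets. With panobinostat they were 2 and 2 (10.6% and 8.0%) at 2 h, 3 and 8 (22.9% and 15.2%) at 5 h and 5 and 17 (34.9% and 24.7%) at 20 h. The counts with romidepsin were 0 and 0 (1.06% and 0.592%), 3 and 0 (7.28% and 2.37%) and 3 and 17 (32.6% and 20.9%). Ricolinostat gave 2 and 0 (5.95% and 5.77%), 1 and 3 (7.17% and 5.65%) and 1 and 2 (7.96% and 2.36%). Romidepsin against panobinostat gave 4 and 2 (8.09% and 8.91%) at 2 h, 10 and 3 (14.4% and 17.4%) at 5 h and 2 and 4 (11.9% and 8.62%) at 20 h. From 2 to 5 h panobinostat gave 1 and 3 (12.9% and 6.44%), romidepsin 0 and 0 (3.45% and 0.792%) and ricolinostat 0 and 0 (2.41% and 0.749%). From 5 to 20 h they gave 2 and 11 (19.7% and 17.6%), 2 and 21 (26.4% and 20.0%) and 2 and 4 (9.58% and 5.2%). The difference between romidepsin and panobinostat in the change from 2 to 20 h gave 0 and 6 (14.0% and 7.88%). At this minimum fewer than 5 of the 39 passed in either direction at 2 h of each inhibitor, and at 20 h of romidepsin 17 were lower.

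**Figure D2:**
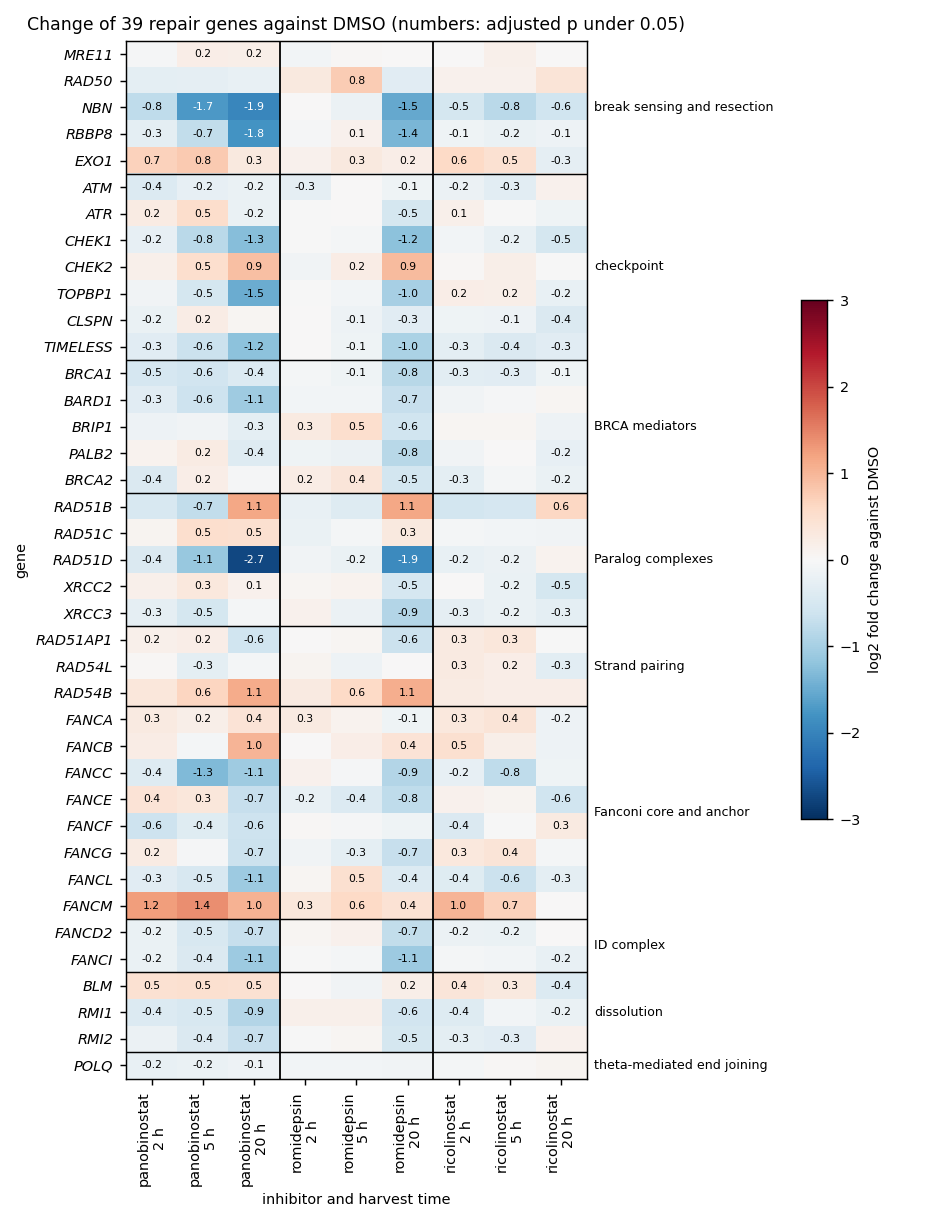
Log2 fold change against DMSO of the 39 repair genes (rows, grouped by role) for 3 inhibitors at 2, 5 and 20 h (columns), from blue (lower) to red (higher). A number stands in each cell whose adjusted p was under 0.05. RAD51D at 20 h of panobinostat is the deepest blue cell, and FANCM is red in 8 of 9 columns.

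Before treatment the genes stood at very different levels. Per kilobase of exon, TIMELESS, a partner of the replication fork, was the highest in DMSO at 45.5 CPM per kb ± 1.63 (SD, n = 2). Behind it came the end-trimming factor RBBP8 (33.7), the ATR activator TOPBP1 (31.1), the nuclease EXO1 (28.3) and FANCI (25.9). The DMSO libraries of these 5 genes did not overlap on this scale. At the low end were RAD54B (0.569), RAD50 (0.493) and RAD51B (0.367 CPM per kb), with as few as 52, 64 and 28 counts in a library and the widest errors. RAD54B and RAD50 overlapped in their DMSO libraries (SD 0.118 and 0.0416). RAD50, a subunit of the complex that first holds a broken end, shares 79.7% of its exon bases with a same-strand transcript model, AC116366.3, that has 0 counts. How the authors counted shared reads is not given in the sources used here, so its level is uncertain.

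Promoter sequences are shown for the genes at the ends of the response at 20 h. By their mean change over the 3 inhibitors at 20 h, RAD51D, RBBP8 and CHEK1 were the lowest of the genes in the promoter table used here and RAD51B and CHEK2 the highest. Each is the first entry of the gene in the RefSeq promoter table (GRCh38.p14), 250 bases before to 50 after the start, printed 5′ to 3′ on the gene's strand. Capitals mark every match to GGGCGG (GC box) or CCAAT (NF-Y type; ATTGG where it lies on the other strand).
RAD51D chr17:35119709-35120008 minus strand: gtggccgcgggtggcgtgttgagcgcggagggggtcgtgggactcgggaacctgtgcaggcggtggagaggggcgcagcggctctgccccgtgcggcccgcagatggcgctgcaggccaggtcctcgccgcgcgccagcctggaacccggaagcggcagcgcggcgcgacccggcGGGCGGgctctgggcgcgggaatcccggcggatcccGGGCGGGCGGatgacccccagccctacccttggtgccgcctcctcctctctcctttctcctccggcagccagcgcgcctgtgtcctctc
RBBP8 chr18:22933078-22933377 plus strand: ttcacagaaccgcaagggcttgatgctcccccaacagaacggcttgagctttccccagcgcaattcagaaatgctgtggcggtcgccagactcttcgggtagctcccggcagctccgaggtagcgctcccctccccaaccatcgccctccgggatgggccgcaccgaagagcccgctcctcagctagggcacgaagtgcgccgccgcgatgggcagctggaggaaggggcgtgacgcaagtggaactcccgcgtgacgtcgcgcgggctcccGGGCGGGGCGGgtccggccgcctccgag
CHEK1 chr11:125625979-125626278 plus strand: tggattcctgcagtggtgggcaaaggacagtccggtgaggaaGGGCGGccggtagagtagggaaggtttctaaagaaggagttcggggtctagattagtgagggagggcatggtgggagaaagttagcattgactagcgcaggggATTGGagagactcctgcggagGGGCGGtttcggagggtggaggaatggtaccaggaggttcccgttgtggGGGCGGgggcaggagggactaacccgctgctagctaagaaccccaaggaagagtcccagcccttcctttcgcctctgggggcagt
RAD51B chr14:67823291-67823590 plus strand: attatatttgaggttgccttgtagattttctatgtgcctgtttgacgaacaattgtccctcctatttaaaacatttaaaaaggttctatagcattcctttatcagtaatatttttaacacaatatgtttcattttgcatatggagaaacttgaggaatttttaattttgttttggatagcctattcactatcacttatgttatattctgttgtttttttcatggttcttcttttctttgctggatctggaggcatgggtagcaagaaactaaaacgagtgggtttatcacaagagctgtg
CHEK2 chr22:28741771-28742070 minus strand: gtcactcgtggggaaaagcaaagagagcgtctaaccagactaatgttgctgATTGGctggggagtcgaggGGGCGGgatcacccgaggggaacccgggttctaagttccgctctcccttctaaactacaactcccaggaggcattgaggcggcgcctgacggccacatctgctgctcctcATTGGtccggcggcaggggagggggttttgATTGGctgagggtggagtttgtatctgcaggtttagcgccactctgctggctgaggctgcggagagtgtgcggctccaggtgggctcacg

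In these windows RAD51D held 3 GC boxes, at -75, -39 and -35 from the start (the last 2 share bases), and RBBP8 held 2 overlapping ones at 23 and 28. CHEK1 held GC boxes at -208, -84 and -35 and an NF-Y type match at -105. CHEK2 held NF-Y type matches at -199, -70 and -40 and a GC box at -180, and the RAD51B window held no match to any motif searched. RAD51B had 2 entries, and the window shown, from 67823291, lies downstream of the gene's first base at 67819779. It is thus not the promoter at that base. The other windows shown also lie inside the span of their genes, and which start these cells use was not tested. A match is a description of the letters and says nothing of binding, and none of these windows held either E2F type motif, the CHR type motif or the NRF1 type motif.

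Over the whole set, 35 of the 39 genes matched 47 entries, with NBN, RAD54B, FANCI and RMI2 unmatched. Both strands were searched, and each share of the 47 entries stands beside that of all 35116 entries of 300 bases. GGGCGG was in 72.3% against 45.0%, CCAAT in 44.7% against 34.6%, and TTTGAA (CHR type) in 8.51% against 15.2%. The palindromic NRF1 type motif was in 2.13%, a second entry of RBBP8, against 1.24%. Of the E2F type motifs, TTTCCCGC was in 8.51% against 1.63% and TTTGGCGC in 0% against 0.652%. The 4 entries with TTTCCCGC belong to CLSPN, FANCD2, XRCC2 and FANCC, shown here over 28 bases on the gene's strand with the match, or its complement GCGGGAAA, in capitals.
CLSPN chr1:35769966-35769993 minus strand: ctctggctggGCGGGAAAgcaagaacag
FANCD2 chr3:10026425-10026452 plus strand: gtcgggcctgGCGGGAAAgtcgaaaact
XRCC2 chr7:152676103-152676130 minus strand: ggcgttggtgGCGGGAAAgttgagtctc
FANCC chr9:95317738-95317765 minus strand: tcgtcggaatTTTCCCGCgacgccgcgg
The FANCC match lies inside the span of its gene, far downstream of the gene's first base at 95426796 on the minus strand. It is thus not in the promoter at that base. At 20 h of romidepsin CLSPN, FANCD2, XRCC2 and FANCC changed by -0.34, -0.74, -0.50 and -0.88, and all 4 passed the test. At 20 h of panobinostat the values were 0.07 (not passed, edgeR adjusted p = 0.27), -0.70, 0.14 and -1.07, so the 4 genes that share these letters did not move alike.

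Among the genes that sense and trim breaks, NBN and RBBP8 fell and EXO1 rose at each time of panobinostat. NBN (nibrin; ENSG00000104320, GRCh38 chromosome 8, 89933336 to 90003228, minus strand) tethers ATM to the break as a subunit of the MRE11 complex. It stood at 68.2 and 64.4 CPM in the DMSO libraries and at 39.4 and 38.9 at 2 h, 19.3 and 20.6 at 5 h and 16.7 and 17.5 at 20 h of panobinostat. Every panobinostat library lay below both DMSO libraries, and the changes were -0.76 ± 0.07, -1.73 ± 0.08 and -1.95 ± 0.08 (edgeR adjusted p = 2.4e-16, 3.0e-37 and 5.3e-43). With romidepsin the values were 68.5 and 65.8 at 2 h, 59.4 and 58.2 at 5 h and 22.7 and 23.3 at 20 h, so that only the 20 h libraries lay far below DMSO (-1.53 ± 0.08, edgeR adjusted p = 4.7e-35). The 2 and 5 h values did not pass (0.02 and -0.17). With ricolinostat NBN was at 48.7 and 43.8 at 2 h, 41.2 and 34.3 at 5 h and 45.9 and 42.3 at 20 h, again below both DMSO libraries at each time. NBN changes with ricolinostat were -0.52 ± 0.07, -0.81 ± 0.07 and -0.59 ± 0.07 (edgeR adjusted p = 1.1e-09, 2.5e-17 and 3.2e-11).

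RBBP8 (CtIP; ENSG00000101773, GRCh38 chromosome 18, 22798261 to 23026488, plus strand) opens the end for trimming together with the MRE11 nuclease. It was at 169 and 174 CPM in DMSO and at 136 and 144 at 2 h, 105 and 102 at 5 h and 47.9 and 50.6 at 20 h of panobinostat, a stepwise fall. RBBP8 log2 values with panobinostat were -0.29 ± 0.05, -0.73 ± 0.05 and -1.80 ± 0.05 (edgeR adjusted p = 3.0e-07, 6.2e-25 and 1.3e-54). With romidepsin the libraries read 168 and 166 at 2 h, 191 and 182 at 5 h and 67.1 and 64.9 at 20 h. At 5 h both were above DMSO and at 20 h both far below (0.12 ± 0.05 and -1.38 ± 0.05; edgeR adjusted p = 0.048 and 3.4e-45). Ricolinostat gave 157 and 154 at 2 h, 155 and 147 at 5 h and 164 and 146 at 20 h, changes of -0.14, -0.19 and -0.15. EXO1 (ENSG00000174371, GRCh38 chromosome 1, 241847967 to 241895148, plus strand), the exonuclease that extends the trimmed end, moved the other way. From 118 and 117 CPM in DMSO it was at 183 and 192 at 2 h, 206 and 201 at 5 h and 142 and 146 at 20 h of panobinostat, above DMSO in all 6 libraries and highest at 5 h. EXO1 log2 changes with panobinostat were 0.68 ± 0.05, 0.79 ± 0.05 and 0.30 ± 0.05 (edgeR adjusted p = 1.6e-24, 2.0e-29 and 1.8e-08). With ricolinostat it read 178 and 178 at 2 h, 162 and 162 at 5 h and 93.3 and 99.8 at 20 h, above DMSO at first and below it at the last time. EXO1 changes with ricolinostat were 0.60 ± 0.05, 0.46 ± 0.05 and -0.28 ± 0.05 (edgeR adjusted p = 9.1e-21, 7.6e-15 and 1.0e-06). Romidepsin libraries stood at 124 and 130.5 at 2 h, 147 and 141 at 5 h and 137 and 132 at 20 h. EXO1 log2 values with romidepsin were 0.12 ± 0.05, 0.30 ± 0.05 and 0.20 ± 0.05 (edgeR adjusted p = 0.11, 1.5e-07 and 1.2e-04).

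MRE11, the nuclease of the complex, stayed within 46.7 to 61.7 CPM over all 20 libraries. It was at 51.0 and 53.7 CPM in DMSO and at 46.7 and 54.7 at 2 h, 59.1 and 61.7 at 5 h and 58.3 and 60.0 at 20 h of panobinostat. Romidepsin libraries stood at 49.6 and 48.7 at 2 h, 55.7 and 51.0 at 5 h and 51.2 and 53.7 at 20 h, and ricolinostat libraries at 52.8 and 53.0 at 2 h, 59.1 and 57.7 at 5 h and 53.0 and 52.2 at 20 h. The 5 and 20 h panobinostat and the 5 h ricolinostat libraries lay above both DMSO libraries and the 2 h romidepsin libraries below both, while the other groups overlapped DMSO. Its changes were -0.04 ± 0.07, 0.21 ± 0.07 and 0.18 ± 0.07 with panobinostat (edgeR adjusted p = 0.68, 0.0053 and 0.012), and none of the 6 others passed. The subunits of this one complex thus moved unequally: NBN was lower by 1.95 ± 0.08 at 20 h of panobinostat where MRE11 was at 0.18 ± 0.07. RAD50, at 3.02 to 9.23 CPM, passed only at 5 h of romidepsin, where its libraries read 9.23 and 7.0 CPM against 4.53 and 5.11 in DMSO (0.75 ± 0.20, edgeR adjusted p = 0.0013). MRE11 with panobinostat at 5 h did not pass without DMSO replicate 1 (0.17) or panobinostat 5 h replicate 2 (0.17). MRE11 with panobinostat at 20 h was not called without DMSO replicate 1 (0.14) or panobinostat 20 h replicate 2 (0.15). RAD50 with romidepsin at 5 h no longer passed without romidepsin 5 h replicate 1 (0.51). RBBP8 with romidepsin at 5 h lost its call whichever of the 4 libraries compared was left out (0.06 to 0.14). RBBP8 with ricolinostat at 2 h did not pass without DMSO replicate 2 (-0.12) or ricolinostat 2 h replicate 2 (-0.13). RBBP8 with ricolinostat at 20 h was not called without DMSO replicate 2 (-0.12) or ricolinostat 20 h replicate 2 (-0.07).

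**Figure D3:**
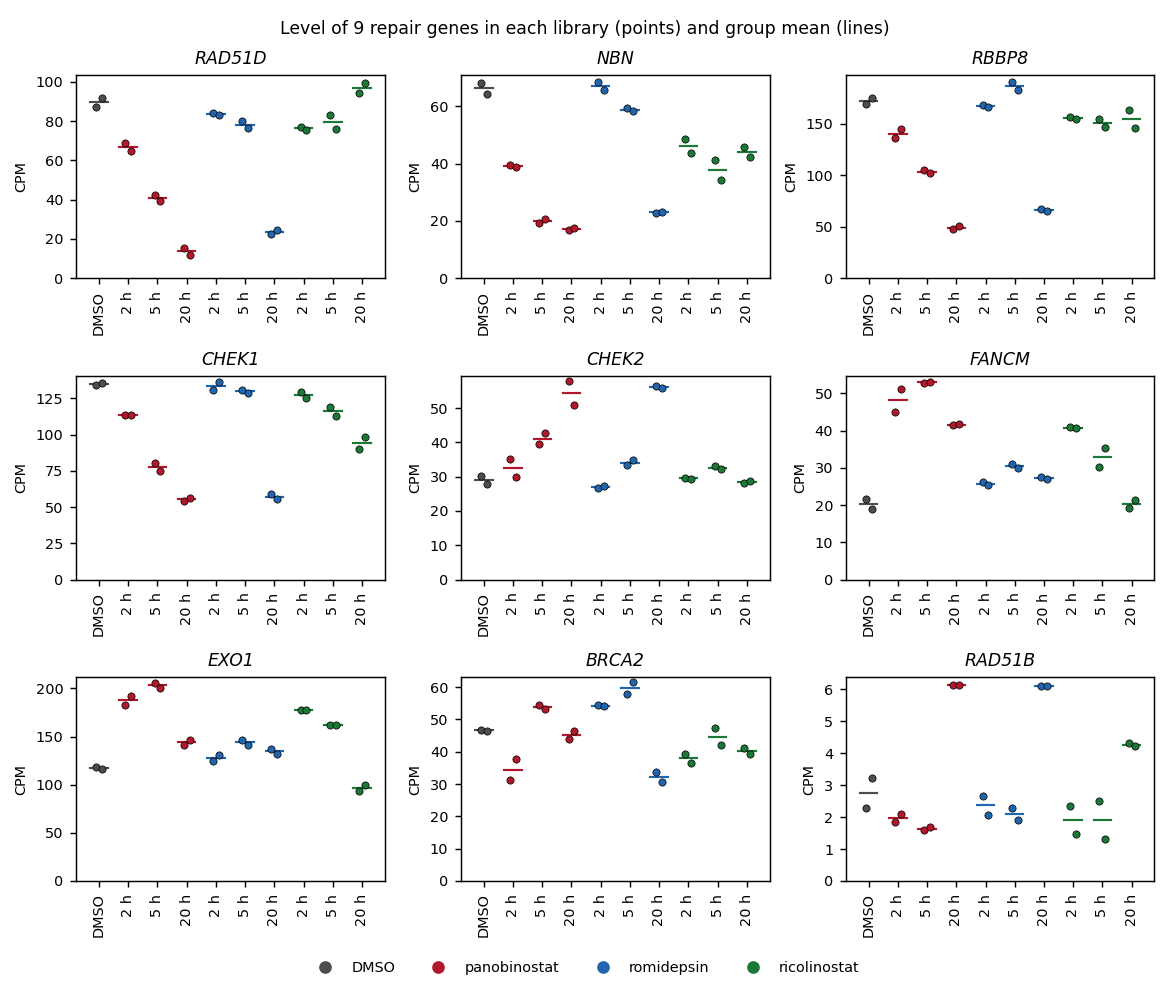
CPM of 9 repair genes in each of the 20 libraries (points, 2 per group; short lines are group means) for DMSO and for 3 inhibitors at 2, 5 and 20 h. RAD51D falls stepwise with panobinostat and late with romidepsin, CHEK1 falls and CHEK2 rises at 20 h of panobinostat and romidepsin, and FANCM is high at 2 h of panobinostat and ricolinostat.

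The checkpoint kinases moved apart. CHEK1 (ENSG00000149554, GRCh38 chromosome 11, 125625136 to 125676255, plus strand), the kinase that ATR activates to hold damaged cells before mitosis, was at 135 and 136 CPM in DMSO and fell to 113 and 113 at 2 h, 80.4 and 75.2 at 5 h and 54.4 and 56.6 at 20 h of panobinostat. The changes were -0.25 ± 0.05, -0.80 ± 0.05 and -1.28 ± 0.05 (edgeR adjusted p = 1.8e-05, 1.0e-25 and 2.4e-41). With romidepsin it read 131 and 136 at 2 h, 131 and 128 at 5 h and 58.8 and 55.4 at 20 h and only the last passed (-1.24 ± 0.05, edgeR adjusted p = 9.9e-40). Ricolinostat gave 129 and 125 at 2 h, 119 and 113 at 5 h and 90.4 and 98.4 at 20 h, with changes of -0.09 ± 0.05, -0.22 ± 0.05 and -0.52 ± 0.05 (edgeR adjusted p = 0.21, 2.5e-04 and 9.9e-15). CHEK2 (ENSG00000183765, GRCh38 chromosome 22, 28687743 to 28742422, minus strand), the kinase downstream of ATM, rose instead at 5 and 20 h of both 10 nM treatments. It was at 30.2 and 27.8 CPM in DMSO and at 35 and 30.0 at 2 h, 39.5 and 42.7 at 5 h and 57.8 and 50.9 at 20 h of panobinostat. CHEK2 log2 changes with panobinostat were 0.16 ± 0.08, 0.51 ± 0.08 and 0.90 ± 0.08 (edgeR adjusted p = 0.11, 2.5e-08 and 6.2e-20). Under romidepsin it read 26.6 and 27.4 at 2 h, 33.3 and 34.9 at 5 h and 56.3 and 55.7 at 20 h, and the 5 and 20 h libraries of both inhibitors lay above DMSO. CHEK2 changes with romidepsin were -0.10 ± 0.08, 0.23 ± 0.08 and 0.95 ± 0.08 (edgeR adjusted p = 0.57, 0.019 and 6.0e-21). With ricolinostat it read 29.6 and 29.4 at 2 h, 33.2 and 32.1 at 5 h and 28.2 and 28.8 at 20 h, and no time passed. CHEK2 log2 values with ricolinostat were 0.03 ± 0.08, 0.17 ± 0.08 and -0.02 ± 0.08 (edgeR adjusted p = 0.88, 0.088 and 0.9). CHEK2 shares 6.70% of its exon bases with HSCB on the other strand, and the strand setting of the counting is not given in the sources used here. HSCB was at 3.87 CPM in DMSO and 5.54 at 20 h of panobinostat.

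ATM and ATR, the kinases at the top of the signal, changed less than CHEK1 at 20 h of panobinostat and romidepsin. ATM (ENSG00000149311, GRCh38 chromosome 11, 108222484 to 108369102, plus strand), which answers breaks, was at 116 and 114 CPM in DMSO and at 78.4 and 93.1 at 2 h, 95.8 and 98.3 at 5 h and 98.4 and 100.3 at 20 h of panobinostat. All 6 lay below DMSO, though with library size the change at 20 h is 0.09. ATM log2 changes with panobinostat were -0.42 ± 0.06, -0.25 ± 0.06 and -0.21 ± 0.06 (edgeR adjusted p = 1.9e-09, 1.6e-04 and 5.8e-04). Romidepsin libraries were at 98.5 and 93.9 at 2 h, 109 and 123 at 5 h and 106 and 104 at 20 h, lower at 2 h and slightly lower at 20 h, where library size gives 0.10. ATM changes with romidepsin were -0.26 ± 0.06, 0.01 ± 0.06 and -0.14 ± 0.06 (edgeR adjusted p = 7.9e-04, 0.97 and 0.03). With ricolinostat ATM read 95.5 and 108 at 2 h, 93.6 and 92.2 at 5 h and 127 and 125 at 20 h, below DMSO at 2 and 5 h and above it at 20 h, which did not pass. ATM log2 values with ricolinostat were -0.18 ± 0.06, -0.31 ± 0.06 and 0.13 ± 0.06 (edgeR adjusted p = 0.011, 5.4e-06 and 0.068). ATR (ENSG00000175054, GRCh38 chromosome 3, 142449235 to 142578826, minus strand), which answers stalled forks, stood at 90.2 and 87.7 CPM in DMSO. It was at 96.0 and 113 at 2 h, 126 and 131 at 5 h and 75.6 and 79.9 at 20 h of panobinostat, so that both 5 h libraries lay above DMSO and both 20 h libraries below, though with library size the last change is 0.11. ATR log2 changes with panobinostat were 0.24 ± 0.06, 0.53 ± 0.06 and -0.19 ± 0.06 (edgeR adjusted p = 2.8e-04, 1.7e-14 and 0.0018). Romidepsin libraries were at 84.3 and 91.5 at 2 h, 87.6 and 93.0 at 5 h and 62.2 and 62.1 at 20 h, with only the last group below DMSO (-0.52 ± 0.06, edgeR adjusted p = 2.0e-13). With ricolinostat ATR read 100.1 and 96.9 at 2 h, 86.2 and 89.5 at 5 h and 80.0 and 82.4 at 20 h. ATR changes with ricolinostat were 0.15 ± 0.06, -0.02 ± 0.06 and -0.13 ± 0.06 (edgeR adjusted p = 0.037, 0.88 and 0.075).

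Of the fork proteins TOPBP1 and TIMELESS fell at 20 h of panobinostat and romidepsin. TOPBP1, which switches ATR on, went from 219 and 235 CPM in DMSO to 75.2 and 85.7 at 20 h of panobinostat (-1.49 ± 0.05) and 116 and 114 of romidepsin (-0.99 ± 0.05). At 2 h of ricolinostat it was at 256 and 263, above DMSO (0.19 ± 0.05). TIMELESS went from 258 and 271 CPM to 114 and 111 at 20 h of panobinostat (-1.24 ± 0.04), 137 and 135 of romidepsin (-0.96 ± 0.04) and 206 and 211 of ricolinostat (-0.34 ± 0.04). CLSPN (claspin), the adaptor through which ATR reaches CHEK1, stayed at 65.2 to 107 CPM. Over the 3 times it read -0.21, 0.22 and 0.07 with panobinostat, 0.00, -0.15 and -0.34 with romidepsin and -0.12, -0.15 and -0.44 with ricolinostat. Its 20 h libraries stood at 96.6 and 94.6 CPM with panobinostat and 65.2 and 69.4 with ricolinostat, against 92.1 and 90.5 in DMSO. ATM with romidepsin at 20 h no longer passed whichever of the 4 libraries compared was left out (-0.15 to -0.12). ATM with ricolinostat at 2 h lost its call without DMSO replicate 1 (-0.17) or ricolinostat 2 h replicate 1 (-0.11). ATR with panobinostat at 2 h did not pass without panobinostat 2 h replicate 2 (0.11). ATR with ricolinostat at 2 h was not called whichever of the 4 libraries compared was left out (0.11 to 0.17). CHEK2 with romidepsin at 5 h no longer passed without DMSO replicate 2 (0.17), romidepsin 5 h replicate 1 (0.24) or romidepsin 5 h replicate 2 (0.17). TOPBP1 with ricolinostat at 5 h lost its call without DMSO replicate 1 (0.13). CLSPN with romidepsin at 5 h did not pass without DMSO replicate 1 (-0.13), DMSO replicate 2 (-0.16) or romidepsin 5 h replicate 2 (-0.12). CLSPN with ricolinostat at 5 h was not called without DMSO replicate 1 (-0.14), DMSO replicate 2 (-0.17) or ricolinostat 5 h replicate 2 (-0.13). TIMELESS with romidepsin at 5 h no longer passed without DMSO replicate 2 (-0.10).

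On the TMM scale the BRCA mediators had no rise at 20 h under any inhibitor. With library size BRCA2 passed as higher at 20 h of panobinostat (0.26, edgeR adjusted p = 7.2e-04). At 20 h 4, 5 and 3 of 5 were lower with panobinostat, romidepsin and ricolinostat, against 32.3%, 29.9% and 16.4% of all genes tested. Their medians were -0.38, -0.69 and -0.16, beside 0.25, 0.22 and 0.03 for all genes. BRCA1 (ENSG00000012048, GRCh38 chromosome 17, 43044295 to 43170245, minus strand), which with BARD1 favours trimming over end joining, was at 146 and 157 CPM in DMSO. With panobinostat it read 98.5 and 114 at 2 h, 101 and 102 at 5 h and 116 and 112 at 20 h, below DMSO in all 6 libraries. BRCA1 log2 values with panobinostat were -0.51 ± 0.05, -0.58 ± 0.05 and -0.42 ± 0.05 (edgeR adjusted p = 1.8e-15, 3.1e-18 and 1.9e-12). Romidepsin libraries read 147 and 145 at 2 h, 142 and 136 at 5 h and 86.7 and 83.2 at 20 h, the lowest level of any group at 20 h. BRCA1 log2 changes with romidepsin were -0.05 ± 0.05, -0.13 ± 0.05 and -0.84 ± 0.05 (edgeR adjusted p = 0.63, 0.046 and 2.2e-28). Ricolinostat gave 119 and 124 at 2 h, 119 and 119.7 at 5 h and 139 and 136 at 20 h. BRCA1 changes with ricolinostat were -0.32 ± 0.05, -0.35 ± 0.05 and -0.14 ± 0.05 (edgeR adjusted p = 7.3e-08, 8.1e-09 and 0.02).

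BRCA2 (ENSG00000139618, GRCh38 chromosome 13, 32315474 to 32400266, plus strand), a mediator that acts on trimmed DNA, did not move in 1 direction. From 46.8 and 46.4 CPM in DMSO it read 31.3 and 37.6 at 2 h, 54.4 and 53.3 at 5 h and 43.9 and 46.4 at 20 h of panobinostat: below DMSO, then above, then overlapping it, with a last change of 0.26 under library size. BRCA2 log2 values with panobinostat were -0.43 ± 0.07, 0.21 ± 0.07 and -0.04 ± 0.07 (edgeR adjusted p = 6.1e-07, 0.011 and 0.59). With romidepsin it read 54.3 and 54.2 at 2 h, 57.9 and 61.5 at 5 h and 33.6 and 30.5 at 20 h, above DMSO in the first hours and below at the end. BRCA2 log2 changes with romidepsin were 0.22 ± 0.07, 0.36 ± 0.07 and -0.54 ± 0.07 (edgeR adjusted p = 0.038, 2.4e-05 and 3.4e-10). Ricolinostat libraries were at 39.3 and 36.6 at 2 h, 47.3 and 42.1 at 5 h and 41.3 and 39.2 at 20 h. BRCA2 changes with ricolinostat were -0.30 ± 0.07, -0.06 ± 0.07 and -0.21 ± 0.07 (edgeR adjusted p = 6.2e-04, 0.62 and 0.02). BRIP1 (FANCJ; ENSG00000136492, GRCh38 chromosome 17, 61681266 to 61863521, minus strand), a helicase that binds BRCA1, took a like course with romidepsin: 40.7 and 37.4 CPM in DMSO and 48.6 and 45.3 at 2 h, 56.8 and 54.1 at 5 h and 27.4 and 24.2 at 20 h. BRIP1 log2 values with romidepsin were 0.27 ± 0.08, 0.51 ± 0.08 and -0.60 ± 0.08 (edgeR adjusted p = 0.018, 6.0e-08 and 3.7e-10). With panobinostat it was at 31.0 and 39.2 at 2 h, 38.2 and 34.6 at 5 h and 32.6 and 31.5 at 20 h, where only 20 h passed, a change that is 0.02 with library size. BRIP1 log2 changes with panobinostat were -0.15 ± 0.08, -0.11 ± 0.08 and -0.29 ± 0.08 (edgeR adjusted p = 0.15, 0.27 and 9.0e-04). With ricolinostat it was at 41.6 and 39.3 at 2 h, 42.8 and 38.6 at 5 h and 35.4 and 34.6 at 20 h, where none passed (0.05, 0.06 and -0.16).

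BARD1, the partner of BRCA1, fell from 49.5 and 53.5 CPM in DMSO to 24.7 and 24.5 at 20 h of panobinostat (-0.34, -0.62 and -1.07 over the 3 times) and to 31.6 and 32.1 of romidepsin (-0.69 ± 0.07). No time of ricolinostat passed (-0.10, -0.04 and 0.06). PALB2, which joins BRCA1 to BRCA2, was at 41.6 and 40.3 CPM in DMSO. With panobinostat it rose to 47.6 and 49.4 at 5 h (0.25 ± 0.07) and fell to 30.6 and 32.2 at 20 h (-0.38 ± 0.07), and with romidepsin it fell to 22.5 and 23.6 at 20 h (-0.83 ± 0.08). BRCA1 with romidepsin at 5 h lost its call without DMSO replicate 2 (-0.07) or romidepsin 5 h replicate 2 (-0.12). BRCA1 with ricolinostat at 20 h did not pass without DMSO replicate 2 (-0.09), ricolinostat 20 h replicate 1 (-0.16) or ricolinostat 20 h replicate 2 (-0.13). BRIP1 with romidepsin at 2 h was not called without DMSO replicate 2 (0.20) or romidepsin 2 h replicate 1 (0.21). PALB2 with panobinostat at 5 h no longer passed without panobinostat 5 h replicate 2 (0.21). PALB2 with ricolinostat at 20 h lost its call without DMSO replicate 1 (-0.22) or ricolinostat 20 h replicate 2 (-0.20). BRCA2 with panobinostat at 5 h did not pass without DMSO replicate 2 (0.20) or panobinostat 5 h replicate 1 (0.18). BRCA2 with romidepsin at 2 h was not called whichever of the 4 libraries compared was left out (0.21 to 0.23). BRCA2 with ricolinostat at 20 h no longer passed without DMSO replicate 1 (-0.20), DMSO replicate 2 (-0.22) or ricolinostat 20 h replicate 2 (-0.17).

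The products of the 5 paralogs RAD51B, RAD51C, RAD51D, XRCC2 and XRCC3 form complexes that act in recombination. These genes included the deepest fall of the set at 20 h of panobinostat and of romidepsin, both times of RAD51D. RAD51B rose at 20 h of each inhibitor. RAD51C rose from 5 h on with panobinostat and at 20 h of romidepsin. RAD51D (ENSG00000185379, GRCh38 chromosome 17, 35092208 to 35121522, minus strand) was at 87.4 and 91.9 CPM in the DMSO libraries. With panobinostat it fell to 68.9 and 64.7 at 2 h, 42.4 and 39.1 at 5 h and 15.5 and 12.0 at 20 h, each step below the one before. RAD51D changes with panobinostat were -0.43 ± 0.06, -1.14 ± 0.07 and -2.72 ± 0.07 (edgeR adjusted p = 9.9e-09, 5.1e-29 and 1.2e-55). Under romidepsin it read 84.2 and 82.9 at 2 h, 79.8 and 76.6 at 5 h and 22.6 and 24.8 at 20 h, so nearly all of its fall came after 5 h. RAD51D log2 values with romidepsin were -0.10 ± 0.06, -0.20 ± 0.06 and -1.92 ± 0.07 (edgeR adjusted p = 0.39, 0.0096 and 6.6e-45). Ricolinostat libraries stood at 76.9 and 75.7 at 2 h, 83.3 and 75.8 at 5 h and 94.3 and 99.3 at 20 h, below DMSO at 2 and 5 h and above it at 20 h, which did not pass. RAD51D log2 changes with ricolinostat were -0.23 ± 0.06, -0.17 ± 0.06 and 0.11 ± 0.06 (edgeR adjusted p = 0.0017, 0.024 and 0.19). A read-through model that joins RAD51D to its neighbour, RAD51L3-RFFL, covers 8.01% of the RAD51D exon bases and had 0 counts in DMSO.

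RAD51B (ENSG00000182185, GRCh38 chromosome 14, 67819779 to 68730218, plus strand), which binds RAD51C, was the lowest of the 39 genes and rose late. It was at 2.29 and 3.21 CPM in DMSO and at 1.84 and 2.11 at 2 h, 1.59 and 1.69 at 5 h and 6.14 and 6.13 at 20 h of panobinostat. Romidepsin libraries read 2.67 and 2.08 at 2 h, 2.29 and 1.90 at 5 h and 6.12 and 6.12 at 20 h. At 20 h both groups stood at nearly the same level, above both DMSO libraries (1.15 ± 0.24 and 1.15 ± 0.24; edgeR adjusted p = 1.0e-05 and 1.4e-05). At 5 h of panobinostat it was lower (-0.74 ± 0.29, edgeR adjusted p = 0.022). Ricolinostat libraries were at 2.36 and 1.47 at 2 h, 2.5 and 1.31 at 5 h and 4.32 and 4.22 at 20 h, with a change of 0.63 ± 0.25 at 20 h (edgeR adjusted p = 0.044). RAD51C (ENSG00000108384, GRCh38 chromosome 17, 58692573 to 58735611, plus strand) read 54.9 and 51.4 CPM in DMSO and 55.0 and 57.8 at 2 h, 74.7 and 75.5 at 5 h and 75.6 and 73.0 at 20 h of panobinostat, above DMSO from 5 h on. RAD51C changes with panobinostat were 0.09 ± 0.06, 0.50 ± 0.06 and 0.48 ± 0.06 (edgeR adjusted p = 0.31, 2.0e-11 and 1.9e-11). With romidepsin it was at 47.6 and 45.6 at 2 h, 50.3 and 52.3 at 5 h and 67.0 and 64.2 at 20 h, where only 20 h passed (0.30 ± 0.06, edgeR adjusted p = 1.1e-05). With ricolinostat it was at 51.4 and 50.1 at 2 h, 50.5 and 49.8 at 5 h and 47.5 and 50.9 at 20 h, where none passed (-0.07, -0.08 and -0.11).

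XRCC2 (ENSG00000196584, GRCh38 chromosome 7, 152644779 to 152676165, minus strand), the partner of RAD51D, was higher at 5 and 20 h of panobinostat, where RAD51D was lower, and both were lower at 20 h of romidepsin. From 56.8 and 53.8 CPM in DMSO it was at 60.9 and 61.5 at 2 h, 64.7 and 72.1 at 5 h and 60.5 and 61.3 at 20 h of panobinostat, all 6 libraries above DMSO. XRCC2 log2 values with panobinostat were 0.15 ± 0.07, 0.31 ± 0.07 and 0.14 ± 0.06 (edgeR adjusted p = 0.068, 2.4e-05 and 0.045). Romidepsin libraries read 58.1 and 57.4 at 2 h, 56.3 and 62.7 at 5 h and 37.6 and 40.6 at 20 h, below DMSO at 20 h (-0.50 ± 0.07, edgeR adjusted p = 2.3e-10). With ricolinostat XRCC2 was at 57.9 and 52.5 at 2 h, 47.4 and 48.4 at 5 h and 38.9 and 38 at 20 h, lower from 5 h on. XRCC2 log2 changes with ricolinostat were 0.00 ± 0.07, -0.21 ± 0.07 and -0.52 ± 0.07 (edgeR adjusted p = 1, 0.0099 and 4.7e-10). XRCC3 (ENSG00000126215, GRCh38 chromosome 14, 103697609 to 103715504, minus strand), the partner of RAD51C, was at 56.7 and 54.0 CPM in DMSO and at 48.0 and 43.3 at 2 h, 39.7 and 37.0 at 5 h and 54.1 and 52.7 at 20 h of panobinostat, below both DMSO libraries at 2 and 5 h and overlapping them at 20 h, where the small change turns to 0.25 with library size. XRCC3 changes with panobinostat were -0.28 ± 0.07, -0.53 ± 0.07 and -0.05 ± 0.07 (edgeR adjusted p = 3.9e-04, 1.6e-10 and 0.47). Romidepsin libraries were at 60.2 and 60.0 at 2 h, 51.7 and 46.7 at 5 h and 29.4 and 31.0 at 20 h, and only 20 h passed (-0.87 ± 0.07, edgeR adjusted p = 1.2e-20). Ricolinostat libraries were at 47.5 and 45.3 at 2 h, 49.5 and 47.9 at 5 h and 43.6 and 46.8 at 20 h, all 6 below DMSO. XRCC3 log2 values with ricolinostat were -0.26 ± 0.07, -0.19 ± 0.07 and -0.29 ± 0.07 (edgeR adjusted p = 0.0016, 0.026 and 3.4e-04). The exons of XRCC3 overlap KLC1 on the other strand over 76.7% of their bases, and KLC1 was at 61.9 CPM in DMSO and 58.4 at 20 h of panobinostat, so reads of both may be mixed in this count. RAD51B with panobinostat at 5 h lost its call without DMSO replicate 2 (-0.47), panobinostat 5 h replicate 1 (-0.72) or panobinostat 5 h replicate 2 (-0.80). RAD51B with ricolinostat at 20 h did not pass without DMSO replicate 1 (0.41), ricolinostat 20 h replicate 1 (0.61) or ricolinostat 20 h replicate 2 (0.65). RAD51D with romidepsin at 5 h was not called without DMSO replicate 2 (-0.16) or romidepsin 5 h replicate 2 (-0.19). RAD51D with ricolinostat at 2 h no longer passed without DMSO replicate 2 (-0.20). RAD51D with ricolinostat at 5 h lost its call without DMSO replicate 2 (-0.13) or ricolinostat 5 h replicate 2 (-0.13). XRCC2 with panobinostat at 20 h did not pass without DMSO replicate 2 (0.10), panobinostat 20 h replicate 1 (0.15) or panobinostat 20 h replicate 2 (0.13). XRCC2 with ricolinostat at 5 h was not called without DMSO replicate 1 (-0.17) or ricolinostat 5 h replicate 1 (-0.19). XRCC3 with ricolinostat at 5 h no longer passed without DMSO replicate 1 (-0.15) or ricolinostat 5 h replicate 2 (-0.19).

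RAD54B and RAD51AP1, which act in strand pairing, moved in opposite directions at 20 h of panobinostat and romidepsin. RAD54B, a DNA motor protein, was at 2.58 and 3.47 CPM in DMSO and 3.44 and 4.22 at 2 h, 5.01 and 4.50 at 5 h and 6.30 and 6.85 at 20 h of panobinostat, higher from 5 h on. RAD54B log2 changes with panobinostat were 0.34 ± 0.24, 0.64 ± 0.24 and 1.11 ± 0.22 (edgeR adjusted p = 0.28, 0.016 and 4.8e-06). With romidepsin it read 3.64 and 3.66 at 2 h, 5.44 and 3.71 at 5 h and 6.88 and 6.01 at 20 h, again higher from 5 h on. RAD54B changes with romidepsin were 0.26 ± 0.24, 0.60 ± 0.23 and 1.08 ± 0.22 (edgeR adjusted p = 0.62, 0.041 and 1.2e-05). No time of ricolinostat passed (0.25, 0.21 and 0.19). It shares 59.1% of its exon bases with FSBP on the same strand, which was at 1.35 CPM in DMSO and 2.41 at 20 h of panobinostat. RAD51AP1, which binds DNA and promotes strand pairing, was at 54.1 and 56.5 CPM in DMSO. It fell to 36.6 and 36.5 at 20 h of panobinostat (-0.60 ± 0.07) and 37.3 and 34.0 of romidepsin (-0.64 ± 0.07). With ricolinostat it was above DMSO at 2 and 5 h (0.27 and 0.35). RAD54L, the close relative of RAD54B, stayed at 24.3 to 39.3 CPM: 0.03, -0.30 and -0.06 with panobinostat (the last 0.25 with library size), 0.09, -0.15 and 0.01 with romidepsin and 0.28, 0.19 and -0.32 with ricolinostat. It overlaps LRRC41 on the other strand over 25.1% of its exon bases, and LRRC41 was at 256 CPM in DMSO and 15.2 at 20 h of panobinostat. RAD51AP1 with panobinostat at 2 h lost its call whichever of the 4 libraries compared was left out (0.13 to 0.19). RAD51AP1 with panobinostat at 5 h did not pass without DMSO replicate 1 (0.15) or panobinostat 5 h replicate 2 (0.16). RAD54L with ricolinostat at 5 h was not called whichever of the 4 libraries compared was left out (0.16 to 0.21). RAD54L with ricolinostat at 20 h no longer passed without ricolinostat 20 h replicate 2 (-0.24). RAD54B with panobinostat at 5 h lost its call without DMSO replicate 1 (0.45) or panobinostat 5 h replicate 1 (0.55). RAD54B with romidepsin at 5 h did not pass without DMSO replicate 1 (0.41) or romidepsin 5 h replicate 1 (0.26).

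The Fanconi core and its anchor held both genes that rose and genes that fell at every time. At 2 h of romidepsin the fall was that of FANCE alone. The only rise at 20 h of ricolinostat was that of FANCF. Each of these calls was lost in some fit without 1 library. Of 8 genes 4, 3 and 3 were higher and 3, 3 and 5 lower at 2, 5 and 20 h of panobinostat, 2, 2 and 2 against 1, 2 and 5 with romidepsin and 4, 3 and 1 against 3, 2 and 3 with ricolinostat. Of all genes tested 20.8%, 30.7% and 40.8% were higher and 18.1%, 25.9% and 32.3% lower at these times of panobinostat. The shares were 3.55%, 13.0% and 38.6% against 4.62%, 16.5% and 29.9% with romidepsin and 16.9%, 18.8% and 14.7% against 14.5%, 15.3% and 16.4% with ricolinostat. FANCM (ENSG00000187790, GRCh38 chromosome 14, 45135940 to 45200890, plus strand), the DNA translocase that anchors the core complex to a stalled fork, had the largest rise of the 8 at 2 h of panobinostat and ricolinostat. It was at 21.6 and 19.0 CPM in DMSO and at 45.0 and 51.2 at 2 h, 52.9 and 53.0 at 5 h and 41.4 and 41.8 at 20 h of panobinostat, all 6 libraries far above both DMSO libraries. FANCM log2 values with panobinostat were 1.25 ± 0.08, 1.39 ± 0.08 and 1.04 ± 0.08 (edgeR adjusted p = 1.5e-25, 6.2e-29 and 2.3e-21). With ricolinostat it read 40.9 and 40.6 at 2 h, 30.3 and 35.3 at 5 h and 19.3 and 21.5 at 20 h, high at first and back at the DMSO level by 20 h. FANCM log2 changes with ricolinostat were 1.01 ± 0.08, 0.69 ± 0.09 and 0.01 ± 0.09 (edgeR adjusted p = 3.8e-19, 3.2e-11 and 0.98). With romidepsin it was at 26.3 and 25.3 at 2 h, 31.1 and 29.9 at 5 h and 27.6 and 27.1 at 20 h, above DMSO in all 6 libraries but below every panobinostat library. FANCM changes with romidepsin were 0.35 ± 0.09, 0.59 ± 0.09 and 0.43 ± 0.09 (edgeR adjusted p = 0.0039, 1.5e-08 and 6.2e-06).

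FANCC (ENSG00000158169, GRCh38 chromosome 9, 95099054 to 95426796, minus strand), which with FANCE forms the part of the core that holds FANCD2, fell. It was at 40.8 and 42.6 CPM in DMSO and at 30.9 and 32.9 at 2 h, 17.3 and 16.3 at 5 h and 18.7 and 20.9 at 20 h of panobinostat. FANCC log2 values with panobinostat were -0.38 ± 0.08, -1.32 ± 0.09 and -1.07 ± 0.08 (edgeR adjusted p = 3.2e-05, 1.4e-25 and 4.0e-22). With ricolinostat it was at 34.7 and 35.4 at 2 h, 26.1 and 22.6 at 5 h and 39 and 37.7 at 20 h, lowest at 5 h (-0.77 ± 0.08, edgeR adjusted p = 1.1e-13). With romidepsin it was at 44.2 and 47.5 at 2 h, 41.6 and 39.2 at 5 h and 23.8 and 21.6 at 20 h, a fall at 20 h only (-0.88 ± 0.08, edgeR adjusted p = 3.0e-17). FANCE itself was at 43.1 and 45.3 CPM in DMSO and rose with panobinostat before it fell, at 56.2 and 60.6 at 2 h, 56.9 and 56.1 at 5 h and 28.6 and 26.0 at 20 h. FANCE log2 changes with panobinostat were 0.40 ± 0.07, 0.35 ± 0.08 and -0.70 ± 0.08 (edgeR adjusted p = 3.2e-06, 3.2e-05 and 1.6e-13). With romidepsin it was lower throughout, at 38.3 and 37.1 at 2 h, 37.7 and 28.7 at 5 h and 26.3 and 25.8 at 20 h. FANCE changes with romidepsin were -0.23 ± 0.08, -0.41 ± 0.08 and -0.76 ± 0.08 (edgeR adjusted p = 0.049, 1.4e-05 and 9.0e-15). Ricolinostat lowered it at 20 h, to 28.8 and 30.1 CPM (-0.59 ± 0.08, edgeR adjusted p = 1.6e-09).

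FANCF, the adaptor of the core, was at 39.8 and 41.6 CPM in DMSO and 25.8 and 27.5 at 2 h, 32.4 and 31.1 at 5 h and 26.3 and 26.2 at 20 h of panobinostat. FANCF log2 values with panobinostat were -0.61 ± 0.08, -0.36 ± 0.08 and -0.63 ± 0.08 (edgeR adjusted p = 1.1e-10, 4.0e-05 and 3.7e-12). Ricolinostat libraries were at 30.2 and 30.2 at 2 h, 42.2 and 37.9 at 5 h and 51.4 and 46.7 at 20 h. FANCF log2 changes with ricolinostat were -0.43 ± 0.08, -0.02 ± 0.08 and 0.27 ± 0.07 (edgeR adjusted p = 2.5e-06, 0.9 and 0.0025). FANCF was thus below DMSO at 2 h of both and above DMSO at 20 h of ricolinostat, and no time of romidepsin passed (0.03, -0.03 and -0.13). FANCF overlaps GAS2 on the other strand over 11.3% of its exon bases, and GAS2 was at 81.0 CPM in DMSO and 1.61 at 20 h of panobinostat. FANCL, the ubiquitin ligase of the complex, went from 28.1 and 26.5 CPM in DMSO to 12.8 and 13.1 at 20 h of panobinostat (-1.08 ± 0.10) and 17.7 and 17.3 at 5 h of ricolinostat (-0.64 ± 0.10). At 5 h of romidepsin it stood at 36.1 and 39.4, above DMSO (0.47 ± 0.09). It overlaps VRK2 on the other strand over 18.7% of its exon bases, and VRK2 went from 27.1 to 4.06 CPM at 20 h of panobinostat. FANCB, a scaffold of the core, was at 20.7 and 20.3 CPM in DMSO. It rose to 42.4 and 40.9 at 20 h of panobinostat (1.02 ± 0.09), 29.7 and 25.1 of romidepsin (0.41 ± 0.09) and 28.6 and 28.6 at 2 h of ricolinostat (0.48 ± 0.09).

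FANCA, the partner of FANCG, was at 94.5 and 99.0 CPM in DMSO and 133 and 123 at 20 h of panobinostat (0.40 ± 0.05). With romidepsin it was at 120.5 and 114 at 2 h (0.27 ± 0.05) and 91.4 and 86.4 at 20 h (-0.12 ± 0.05, but 0.11 with library size). Ricolinostat took it to 122 and 131 at 5 h (0.39 ± 0.05) and 87.9 and 85.1 at 20 h (-0.16 ± 0.06), above DMSO and then below it. It overlaps ZNF276 on the other strand over 23.6% of its exon bases. FANCG was at 63.4 and 65.4 CPM in DMSO, 41.7 and 40.6 at 20 h of panobinostat (-0.65 ± 0.06) and 41.7 and 38.5 of romidepsin (-0.68 ± 0.07). At 5 h it was at 54.8 and 49.6 with romidepsin (-0.30 ± 0.06, edgeR adjusted p = 9.3e-05) and at 81.3 and 86.1 with ricolinostat, below and above DMSO (0.38 ± 0.06). FANCA with panobinostat at 5 h was not called without DMSO replicate 1 (0.14) or panobinostat 5 h replicate 1 (0.13). FANCA with romidepsin at 20 h no longer passed without DMSO replicate 2 (-0.09) or romidepsin 20 h replicate 2 (-0.08). FANCA with ricolinostat at 20 h lost its call without DMSO replicate 2 (-0.13) or ricolinostat 20 h replicate 2 (-0.14). FANCC with ricolinostat at 2 h did not pass without DMSO replicate 2 (-0.22) or ricolinostat 2 h replicate 1 (-0.25). FANCE with romidepsin at 2 h was not called whichever of the 4 libraries compared was left out (-0.26 to -0.19). FANCF with ricolinostat at 20 h no longer passed without ricolinostat 20 h replicate 1 (0.20). FANCG with panobinostat at 2 h lost its call without panobinostat 2 h replicate 1 (0.15). FANCL with panobinostat at 2 h did not pass without panobinostat 2 h replicate 1 (-0.25). FANCL with ricolinostat at 20 h was not called without DMSO replicate 1 (-0.26) or ricolinostat 20 h replicate 1 (-0.25). FANCM with romidepsin at 2 h no longer passed without DMSO replicate 2 (0.26) or romidepsin 2 h replicate 1 (0.32).

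FANCD2 and FANCI, the pair that the core complex marks with ubiquitin, fell together at 20 h of panobinostat and romidepsin. FANCD2 (ENSG00000144554, GRCh38 chromosome 3, 10026414 to 10101930, plus strand) was at 99.0 and 108 CPM in DMSO and 88.7 and 90.4 at 2 h, 71.7 and 77.4 at 5 h and 67.1 and 60.9 at 20 h of panobinostat, each pair below the one before. FANCD2 changes with panobinostat were -0.21 ± 0.06, -0.47 ± 0.06 and -0.70 ± 0.06 (edgeR adjusted p = 0.0014, 7.4e-12 and 1.2e-20). Under romidepsin it read 114 and 102 at 2 h, 113 and 113 at 5 h and 64.4 and 59.5 at 20 h, and only 20 h passed (-0.74 ± 0.06, edgeR adjusted p = 8.3e-22). FANCI (ENSG00000140525, GRCh38 chromosome 15, 89243949 to 89317261, plus strand) was at 199.8 and 202 CPM in DMSO and fell to 167 and 183 at 2 h, 144 and 153 at 5 h and 93.5 and 94.2 at 20 h of panobinostat. FANCI log2 values with panobinostat were -0.20 ± 0.05, -0.43 ± 0.05 and -1.10 ± 0.05 (edgeR adjusted p = 1.9e-04, 3.3e-14 and 3.5e-40). Romidepsin libraries read 200.2 and 197 at 2 h, 195 and 188 at 5 h and 96.2 and 91.0 at 20 h, and the fall at 20 h had nearly the size of that with panobinostat (-1.10 ± 0.05, edgeR adjusted p = 8.1e-40). With ricolinostat FANCD2 was at 93.5 and 90.2 at 2 h, 91.6 and 89.5 at 5 h and 102 and 106 at 20 h, slightly below DMSO at 2 and 5 h. FANCD2 log2 changes with ricolinostat were -0.17 ± 0.06, -0.19 ± 0.06 and 0.01 ± 0.06 (edgeR adjusted p = 0.011, 0.0038 and 0.97). FANCI was at 193 and 192 at 2 h, 196 and 181 at 5 h and 174 and 171 at 20 h, and only 20 h passed. FANCI changes with ricolinostat were -0.06 ± 0.05, -0.09 ± 0.05 and -0.22 ± 0.05 (edgeR adjusted p = 0.35, 0.12 and 4.9e-05). FANCD2 with panobinostat at 2 h lost its call without DMSO replicate 2 (-0.14). FANCD2 with ricolinostat at 2 h did not pass without DMSO replicate 2 (-0.11) or ricolinostat 2 h replicate 2 (-0.15). FANCD2 with ricolinostat at 5 h was not called without DMSO replicate 2 (-0.13).

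The dissolution complex, which unlinks joined molecules without crossing over, split at 20 h of panobinostat between the helicase BLM and its partners RMI1 and RMI2. BLM (ENSG00000197299, GRCh38 chromosome 15, 90717327 to 90816165, plus strand) was at 48.6 and 52.3 CPM in DMSO and above it in all 6 panobinostat libraries, at 64.1 and 73.3 at 2 h, 71.5 and 70.6 at 5 h and 68.9 and 68.9 at 20 h. BLM log2 values with panobinostat were 0.45 ± 0.07, 0.49 ± 0.07 and 0.45 ± 0.06 (edgeR adjusted p = 6.6e-09, 1.9e-10 and 1.3e-09). With ricolinostat it read 65.0 and 66.0 at 2 h, 60.2 and 63.5 at 5 h and 36.8 and 39.3 at 20 h, above DMSO at 2 and 5 h and below at 20 h. BLM log2 changes with ricolinostat were 0.37 ± 0.07, 0.29 ± 0.07 and -0.41 ± 0.07 (edgeR adjusted p = 1.2e-06, 1.5e-04 and 6.2e-07). Romidepsin libraries were at 50.9 and 50.7 at 2 h, 50 and 43.8 at 5 h and 58.6 and 55.4 at 20 h. BLM changes with romidepsin were 0.01 ± 0.07, -0.10 ± 0.07 and 0.17 ± 0.07 (edgeR adjusted p = 1, 0.27 and 0.016). RMI1 was at 42.8 and 45.0 CPM in DMSO and fell to 22.1 and 25.4 at 20 h of panobinostat (-0.88 ± 0.08) and 30.8 and 28.6 of romidepsin (-0.57 ± 0.08). At 2 h of ricolinostat RMI1 was at 34.2 and 32.9 (-0.39 ± 0.08, edgeR adjusted p = 2.0e-05). RMI2 was at 26.8 and 22.0 CPM in DMSO and fell to 14.4 and 15.7 at 20 h of panobinostat (-0.69 ± 0.10) and 16.5 and 17.3 of romidepsin (-0.52 ± 0.10). POLQ (ENSG00000051341, GRCh38 chromosome 3, 121431427 to 121546641, minus strand), the polymerase of a backup end joining pathway, changed little. Its libraries were at 109.8 and 116 CPM in DMSO and 87.7 and 106 at 2 h, 97.8 and 97.0 at 5 h and 104 and 99.1 at 20 h of panobinostat. All 6 lay below DMSO, though with library size the change at 20 h is 0.15 and passed as higher (edgeR adjusted p = 0.024). POLQ log2 values with panobinostat were -0.22 ± 0.06, -0.21 ± 0.06 and -0.15 ± 0.06 (edgeR adjusted p = 9.1e-04, 8.5e-04 and 0.011). With romidepsin POLQ read 109.5 and 102 at 2 h, 100.4 and 111 at 5 h and 109 and 102 at 20 h, and with ricolinostat 110.3 and 108 at 2 h, 114 and 117 at 5 h and 120.4 and 118 at 20 h. No time of either passed (-0.09, -0.09 and -0.10, the last 0.14 with library size, and -0.05, 0.03 and 0.08). BLM with romidepsin at 20 h no longer passed without DMSO replicate 1 (0.12) or romidepsin 20 h replicate 1 (0.13). RMI1 with ricolinostat at 20 h lost its call without DMSO replicate 2 (-0.17) or ricolinostat 20 h replicate 2 (-0.16). RMI2 with ricolinostat at 2 h did not pass without DMSO replicate 1 (-0.14) or ricolinostat 2 h replicate 2 (-0.28). RMI2 with ricolinostat at 5 h was not called without DMSO replicate 1 (-0.19). POLQ with panobinostat at 2 h no longer passed without panobinostat 2 h replicate 1 (-0.09). POLQ with panobinostat at 20 h lost its call without DMSO replicate 2 (-0.11) or panobinostat 20 h replicate 2 (-0.12).

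Panobinostat and romidepsin were given at the same dose and times, so they were tested against each other. The 3 comparisons were each adjusted over all genes tested. Equal nM need not be equal strength, and strength and kind of inhibitor cannot be told apart here. At 2 h 20.8% of all genes were higher and 18.1% lower than DMSO with panobinostat, against 3.55% and 4.62% with romidepsin. Romidepsin is a cyclic depsipeptide and panobinostat a hydroxamic acid. At 2 h 19 of the 39 genes were higher with romidepsin and 9 lower (17.3% and 19.8% of all genes tested), at 5 h 20 and 12 (24.8% and 25.9%), and at 20 h 9 and 14 (23.4% and 18.3%). NBN differed by 0.78 ± 0.07 at 2 h and 1.56 ± 0.08 at 5 h (edgeR adjusted p = 8.8e-17 and 3.0e-33), its 59.4 and 58.2 CPM at 5 h of romidepsin standing against 19.3 and 20.6 with panobinostat. FANCC differed by 1.27 ± 0.09 (edgeR adjusted p = 3.0e-24) and RAD50 by 1.01 ± 0.21 (edgeR adjusted p = 1.3e-05) at 5 h. At 2 h BRCA2 differed by 0.65 ± 0.07 (edgeR adjusted p = 8.5e-13) and FANCF by 0.64 ± 0.08 (edgeR adjusted p = 2.9e-11). Lower with romidepsin were FANCM at 2 and 5 h (-0.90 ± 0.08 and -0.80 ± 0.08; edgeR adjusted p = 1.2e-17 and 1.6e-15). So were FANCE at both (-0.63 ± 0.08 and -0.76 ± 0.08), EXO1 at 2 h (-0.56 ± 0.05) and BLM at 5 h (-0.60 ± 0.07).

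At 20 h other genes led. RAD51D was higher with romidepsin by 0.81 ± 0.08 (edgeR adjusted p = 2.1e-14), at 22.6 and 24.8 against 15.5 and 12.0 CPM, so its fall was less deep. FANCL was higher by 0.66 ± 0.10 (edgeR adjusted p = 1.6e-08) and TOPBP1 by 0.51 ± 0.05 (edgeR adjusted p = 5.1e-16). XRCC3 was at 29.4 and 31.0 with romidepsin against 54.1 and 52.7 CPM, a difference of -0.82 ± 0.07 (edgeR adjusted p = 9.2e-19). XRCC2 differed by -0.64 ± 0.07 (edgeR adjusted p = 1.4e-14) and FANCB by -0.61 ± 0.09 (edgeR adjusted p = 3.8e-09). All 5 BRCA mediators differed at 20 h. BRCA1 (-0.42 ± 0.05), BRIP1 (-0.31 ± 0.08), PALB2 (-0.45 ± 0.08) and BRCA2 (-0.50 ± 0.07) were lower with romidepsin and BARD1 (0.37 ± 0.08) higher. Genes with no difference past the test at 20 h included CHEK1 (0.04 ± 0.06), CHEK2 (0.05 ± 0.07), RAD51B (0.00 ± 0.22), FANCD2 (-0.05 ± 0.06) and FANCI (0.00 ± 0.05), which does not show that they were alike. BRIP1 at 20 h did not pass without romidepsin 20 h replicate 2 (-0.22).

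**Figure D4:**
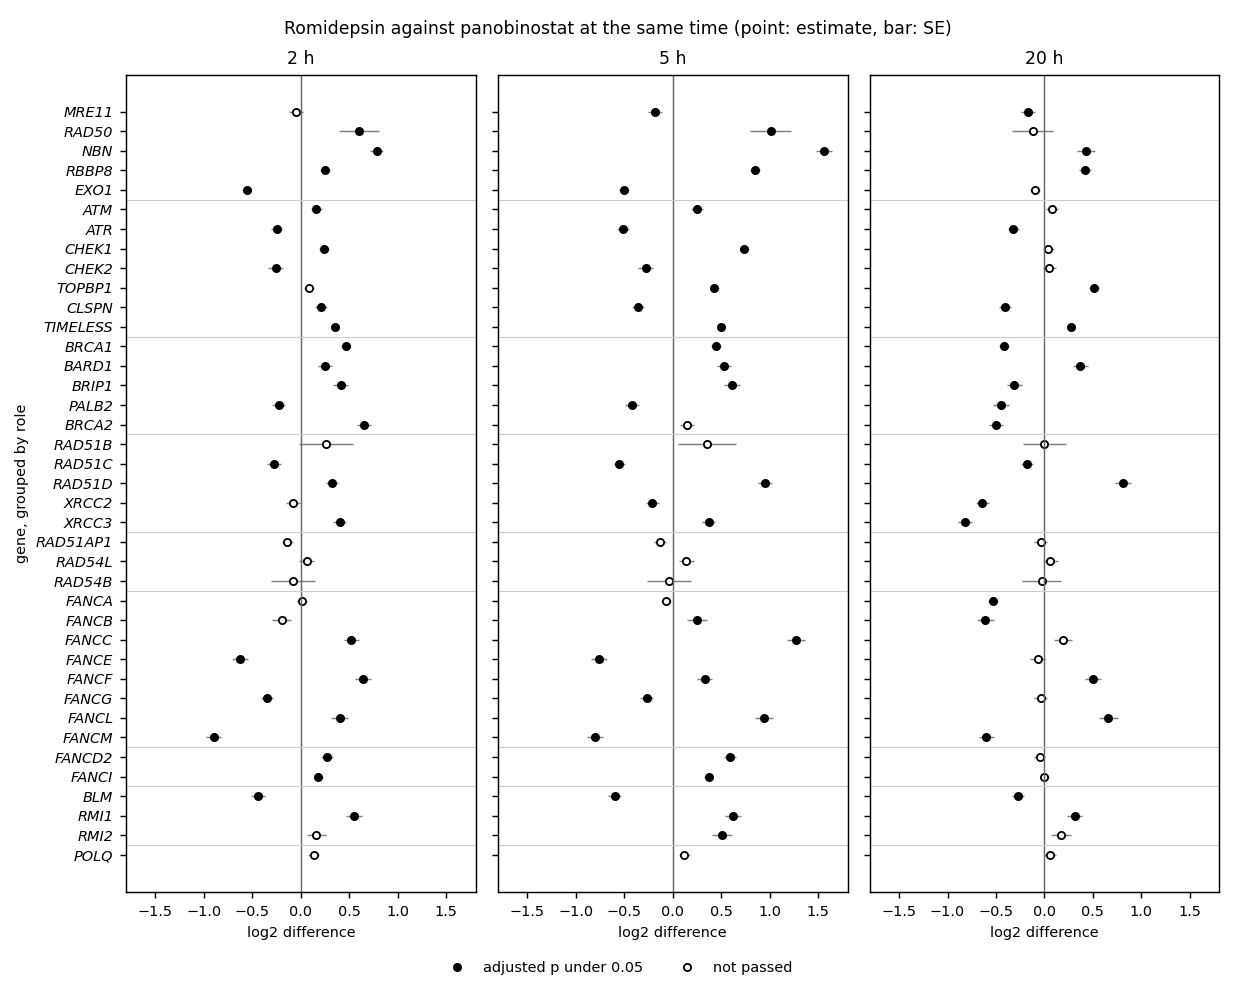
Log2 difference between romidepsin and panobinostat (romidepsin minus panobinostat, ± SE from the fit, 2 libraries per group) for the 39 genes at 2, 5 and 20 h. Filled points passed the test; NBN stands highest at 5 h and FANCM lowest at 2 h, while at 20 h RAD51D and XRCC3 mark the ends.

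The course from 2 to 20 h itself differed between these inhibitors. In the test of that difference, 7 of the 39 moved further up, or less far down, with romidepsin and 14 further down (23.0% and 13.4% of all genes tested, and 4 and 18 of the 39 with library size). All genes tested gave 4041 and 3626 with library size. Without panobinostat 2 h replicate 1 or 20 h replicate 2, 9 moved further down. The widest were XRCC3 (-1.22 ± 0.10, edgeR adjusted p = 4.3e-20), BRCA2 (-1.15 ± 0.10, edgeR adjusted p = 2.7e-17) and BRCA1 (-0.88 ± 0.07, edgeR adjusted p = 1.9e-19), each of which started higher with romidepsin at 2 h and ended lower at 20 h. In the libraries BRCA1 at 2 h read 147 and 145 with romidepsin and 98.5 and 114 CPM with panobinostat, and at 20 h 86.7 and 83.2 and 116 and 112. In the other direction stood FANCE (0.57 ± 0.11, edgeR adjusted p = 1.4e-05), RAD51D (0.48 ± 0.11, edgeR adjusted p = 8.3e-05) and EXO1 (0.46 ± 0.07, edgeR adjusted p = 2.9e-09).

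Ricolinostat was given at another dose than the other inhibitors and was not tested against them. Side by side, NBN at 2 h read -0.52 with ricolinostat against DMSO, -0.76 with panobinostat and 0.02 with romidepsin, and FANCM 1.01, 1.25 and 0.35. RAD51D at 20 h read 0.11, -2.72 and -1.92, and CHEK2 -0.02, 0.90 and 0.95. All share the same DMSO libraries.

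Comparisons of successive times within an inhibitor use no DMSO library and show between which harvests each gene moved. No DMSO library has a harvest time, so time in culture and inhibitor cannot be told apart in these steps either. From 2 to 5 h 10 of the 39 rose and 15 fell with panobinostat (19.8% and 22.2% of all genes tested, and 14 and 10 of the 39 with library size). The same step with romidepsin gave 7 and 6 (8.4% and 11.9%, and 12 and 1 with library size). With ricolinostat it gave 3 and 9 (6.69% and 8.58%, and 4 and 3 with library size). With library size all genes tested gave 5409 and 3221 for panobinostat, 2613 and 1407 for romidepsin and 1978 and 1286 for ricolinostat. From 5 to 20 h 8 rose and 23 fell with panobinostat (27.5% and 28.9%, and 12 and 16 with library size). All genes tested gave 7280 and 4724 here with library size. This late step gave 6 and 27 with romidepsin (33.4% and 29.4%) and 10 and 17 with ricolinostat (17.2% and 20.7%). The late step was thus where most repair genes fell with romidepsin, with a median of -0.60 beside 0.09 for all genes. With panobinostat the median was -0.23 beside 0.05. Early counts changed when 1 library was left out, which leaves 1 library in a group and weakens the test. With romidepsin 4 rose and 3 fell without 2 h replicate 2, 3 rose without 5 h replicate 1, and 2 and 1 fell without 2 h replicate 1 and 5 h replicate 2. With ricolinostat 1 rose without 2 h replicate 2 or 5 h replicate 1, and 3 to 4 fell whichever of the 4 libraries compared was left out.

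**Figure D5:**
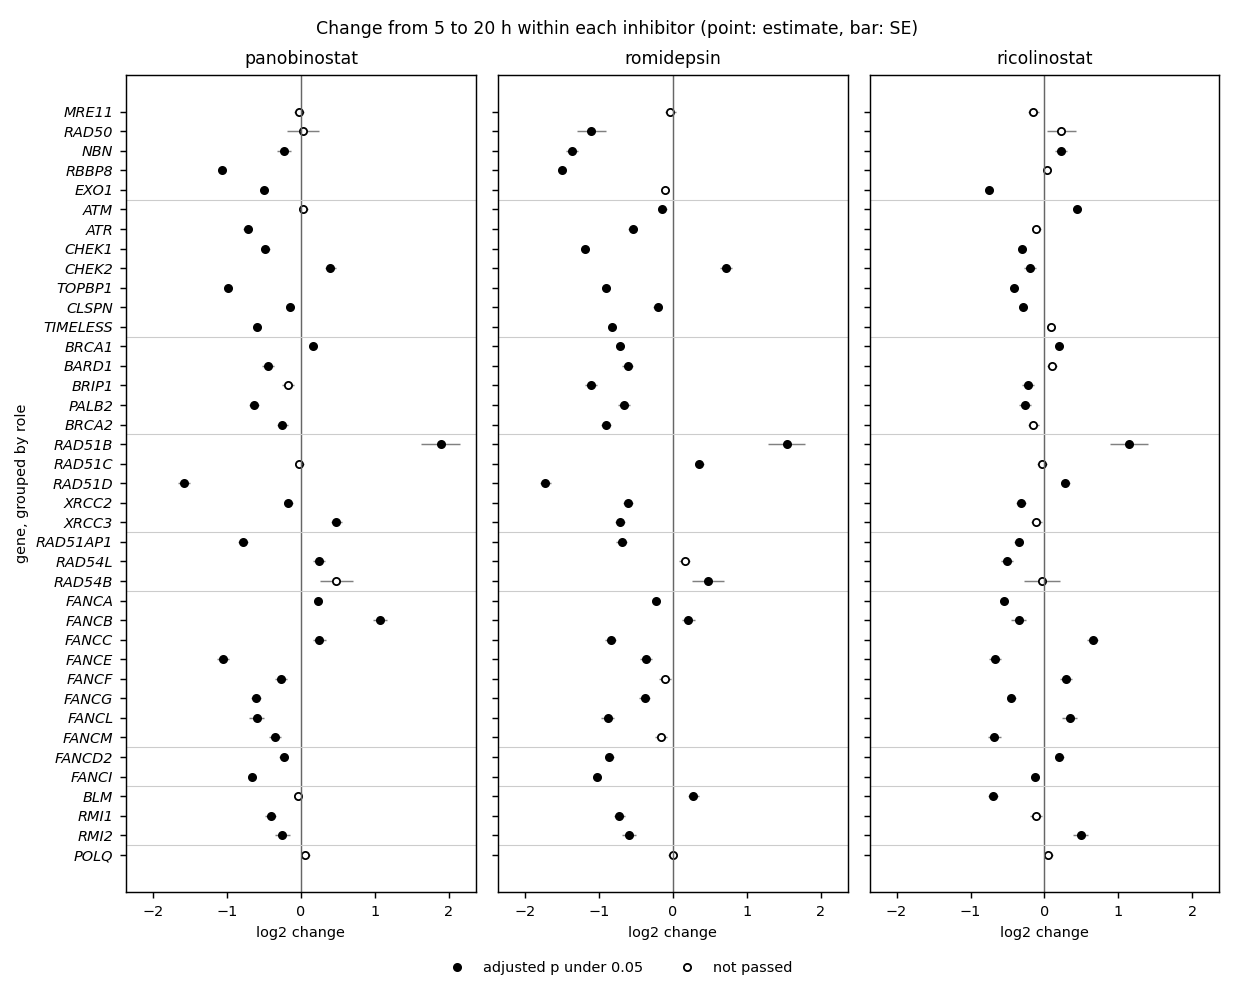
Log2 change from 5 to 20 h (± SE from the fit, 2 libraries per group) of the 39 genes with panobinostat, romidepsin and ricolinostat; filled points passed the test. RAD51B rose with all 3 inhibitors, and RAD51D and RBBP8 fell furthest with panobinostat and romidepsin. The small panobinostat changes of CLSPN, XRCC2 and RAD51C turn to 0.02, 0.00 and 0.16 with library size.

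Between 2 and 5 h of panobinostat BRCA2 rose by 0.64 ± 0.07 (edgeR adjusted p = 3.1e-12) and CLSPN by 0.43 ± 0.06 (edgeR adjusted p = 1.4e-10). NBN fell by 0.97 ± 0.08 (edgeR adjusted p = 1.6e-18) and FANCC by 0.93 ± 0.09 (edgeR adjusted p = 8.9e-16). Between 5 and 20 h RAD51B went up by 1.89 ± 0.26 (edgeR adjusted p = 6.8e-10) and FANCB by 1.07 ± 0.09 (edgeR adjusted p = 1.1e-18). RAD51D fell by 1.58 ± 0.08 (edgeR adjusted p = 2.0e-33) and RBBP8 by 1.07 ± 0.05 (edgeR adjusted p = 2.2e-34). With romidepsin the early step was small. FANCL rose by 0.40 ± 0.09 (edgeR adjusted p = 3.0e-04) and CHEK2 by 0.33 ± 0.08 (edgeR adjusted p = 9.6e-04), while XRCC3 fell by 0.28 ± 0.07 (edgeR adjusted p = 7.6e-04) and RAD54L by 0.24 ± 0.08 (edgeR adjusted p = 0.021). Its late step was large, with RAD51B up by 1.54 ± 0.25 (edgeR adjusted p = 6.2e-08) and CHEK2 up by 0.72 ± 0.08 (edgeR adjusted p = 9.9e-15). RAD51D (-1.72 ± 0.07, edgeR adjusted p = 1.3e-40) and RBBP8 (-1.50 ± 0.05, edgeR adjusted p = 4.9e-48) led the falls. XRCC3 with romidepsin from 2 to 5 h was not called without romidepsin 5 h replicate 2 (-0.22). RAD54L with romidepsin from 2 to 5 h no longer passed without romidepsin 2 h replicate 1 (-0.21), romidepsin 5 h replicate 1 (-0.25) or romidepsin 5 h replicate 2 (-0.26).

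With ricolinostat FANCF rose by 0.41 ± 0.08 (edgeR adjusted p = 2.9e-05) and RMI1 by 0.29 ± 0.08 (edgeR adjusted p = 0.0038) from 2 to 5 h. FANCC fell by 0.52 ± 0.08 (edgeR adjusted p = 8.3e-07) and FANCM by 0.31 ± 0.08 (edgeR adjusted p = 0.0023). From 5 to 20 h RAD51B rose by 1.14 ± 0.26 (edgeR adjusted p = 1.8e-04) and FANCC by 0.65 ± 0.08 (edgeR adjusted p = 1.3e-10). EXO1 fell by 0.75 ± 0.05 (edgeR adjusted p = 8.1e-26) and BLM by 0.70 ± 0.07 (edgeR adjusted p = 1.4e-15). FANCC thus recovered from 26.1 and 22.6 to 39 and 37.7 CPM, and EXO1 passed from above DMSO to below it. RMI1 with ricolinostat from 2 to 5 h lost its call without ricolinostat 2 h replicate 2 (0.27) or ricolinostat 5 h replicate 1 (0.18). FANCM with ricolinostat from 2 to 5 h did not pass without ricolinostat 5 h replicate 1 (-0.20).

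The rest of the pathway, in lists of other repair genes, is given at 20 h against DMSO, beside medians of 0.25, 0.22 and 0.03 for all genes tested. Of all genes tested 40.8% were higher and 32.3% lower with panobinostat, 38.6% and 29.9% with romidepsin and 14.7% and 16.4% with ricolinostat. Of 42 other homologous recombination and Fanconi genes tested, 23 were higher and 14 lower with panobinostat, 16 and 17 with romidepsin and 6 and 14 with ricolinostat (medians 0.33, -0.12 and -0.10). Among these, ABRAXAS1, which brings BRCA1 to ubiquitin, rose by 1.80 ± 0.13 and 1.79 ± 0.13 with panobinostat and romidepsin. USP1, which removes ubiquitin from FANCD2, changed by -1.35 ± 0.05, -0.99 ± 0.05 and -0.23 ± 0.05 with panobinostat, romidepsin and ricolinostat. RPA3, the smallest subunit of the single-strand binding protein RPA, rose by 1.48 ± 0.09, 1.37 ± 0.09 and 0.38 ± 0.10, and FAAP100, a core subunit beside FANCB and FANCL, changed by -0.28 ± 0.05, -1.19 ± 0.06 and -0.62 ± 0.05. Of 17 other checkpoint genes 7 were higher and 9 lower with panobinostat, 7 and 10 with romidepsin and 5 and 7 with ricolinostat (medians -0.29, -0.24 and -0.13). The kinase WEE1 fell (-2.22 ± 0.06 and -0.89 ± 0.05 with panobinostat and romidepsin), as did the phosphatase CDC25A (-1.25 ± 0.07 and -1.84 ± 0.07), and the clamp subunit RAD9A rose (1.51 ± 0.06 and 0.96 ± 0.07).

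Lists of other repair routes are given in the same way. Of 18 genes of non-homologous end joining 5 were higher and 11 lower with panobinostat, 3 and 13 with romidepsin and 1 and 7 with ricolinostat (medians -0.56, -0.62 and -0.19). The DNA end binder XRCC5 read -1.46 ± 0.04, -1.09 ± 0.04 and -0.27 ± 0.04. Of 7 mismatch repair genes 1 was higher and 5 lower with panobinostat, 0 and 6 with romidepsin and 0 and 5 with ricolinostat (medians -0.60, -0.56 and -0.26). MSH6, a mismatch sensor, was at -0.91 ± 0.04, -0.99 ± 0.04 and -0.61 ± 0.04. Of 19 base excision genes 4 were higher and 13 lower with panobinostat, 4 and 14 with romidepsin and 2 and 11 with ricolinostat (medians -0.47, -0.68 and -0.22). LIG3, a DNA ligase, read -3.45 ± 0.06, -2.31 ± 0.05 and 0.75 ± 0.04. Of 17 nucleotide excision genes 6 were higher and 7 lower with panobinostat, 3 and 9 with romidepsin and 2 and 6 with ricolinostat (medians -0.08, -0.24 and -0.08). UVSSA, which acts at stalled polymerases, was at 2.08 ± 0.08, 1.29 ± 0.08 and 0.35 ± 0.09. Of 19 genes of E2F and cell cycle transcription 3 were higher and 14 lower with panobinostat, 5 and 13 with romidepsin and 3 and 9 with ricolinostat (medians -0.73, -0.73 and -0.16). E2F2 and FOXM1, regulators of S phase and G2 genes, fell with panobinostat (-2.75 ± 0.05 and -2.68 ± 0.05) and romidepsin (-2.15 ± 0.05 and -2.03 ± 0.05).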

How the data were processed

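RNA of 20 OPM2 libraries was sequenced after poly(A) selection, strand-specific and paired-end, per the labels' protocols. The deposited table holds raw whole-number counts per gene that the authors made from the reads, and the submitters' processing notes name HISAT2, SAMtools, featureCounts and GRCh38. For the annotation release, strand setting and treatment of reads shared by genes: not given in the sources used here. The columns not used number 0. Of 78932 identifiers 61481 had a symbol in the name table, and positions and exon lengths come from GENCODE 29.

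Genes with enough counts (filterByExpr, minimum 10) were scaled by TMM and fitted over all 10 groups with edgeR 4.0.16 (R 4.3.3, limma 3.58.1). Quasi-likelihood tests were two-sided and adjusted by Benjamini-Hochberg over 20957 genes within each comparison, with a threshold of 0.05 (common dispersion 0.00175). The code was tested on simulated data. The members and lists were chosen with earlier results of these data known. Full values are given for a panel (BRCA1, BRCA2, FANCD2, FANCI, CHEK1, CHEK2, ATM, ATR, MRE11, RBBP8, BRIP1, BLM, POLQ, RAD51B, RAD51C, RAD51D, XRCC2 and XRCC3). They are also given for members that passed, with a mean of at least 1 CPM in some group, among the 3 largest rises or falls against DMSO or between romidepsin and panobinostat, or the 2 largest between successive times. Of each other list up to 3 genes per direction were named from the largest changes at 20 h. Total counts of 17264640 to 29088868 leave counting error small except for RAD51B, RAD50 and RAD54B. Alternatives were DESeq2 1.42.0, other scalings, no filter, a 1.5-fold minimum, 2 groups alone, the replicate number as a block, and leaving out each library. The labels number replicates 1 and 2 but do not tie equal numbers to a shared day or culture, and over 45 pairs of groups the differences between replicates correlated by -0.0248 to 0.0347, so no pairing was used.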

Additional observations from a re-analysis of the deposited data

Results flagged for a closer look

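These genes were picked out because their log2 changes against DMSO passed the test with opposite signs in 2 groups and the difference between those groups passed too (edgeR quasi-likelihood test, 2 libraries per group). Each difference still passed when any 1 library compared was left out, but several of the smaller changes against DMSO did not. The opposite signs of those genes are less certain. Leaving 1 library in a group weakens the test. A lost call thus does not show that the change rests on a single library. No cause was weighed.

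Differences between the 10 nM treatments are romidepsin minus panobinostat, with the change of each against DMSO in that order. At 2 h BRCA2 differed by 0.65 (0.22 and -0.43, edgeR adjusted p = 8.5e-13) and FANCE by -0.63 (-0.23 and 0.40, edgeR adjusted p = 1.1e-11). The romidepsin change of both failed the test whichever of the 4 libraries compared was left out. At 5 h RBBP8 differed by 0.85 (0.12 and -0.73, edgeR adjusted p = 3.3e-29), CLSPN by -0.36 (-0.15 and 0.22, edgeR adjusted p = 1.7e-08), FANCE by -0.76 (-0.41 and 0.35, edgeR adjusted p = 8.1e-15) and FANCL by 0.94 (0.47 and -0.47, edgeR adjusted p = 1.8e-15). The romidepsin change of RBBP8 failed whichever library was left out, and that of CLSPN without DMSO replicate 1 or 2 or romidepsin 5 h replicate 2 (-0.13, -0.16 and -0.12). At 20 h XRCC2 differed by -0.64 (-0.50 and 0.14, edgeR adjusted p = 1.4e-14) and FANCA by -0.53 (-0.12 and 0.40, edgeR adjusted p = 4.1e-15). The panobinostat change of XRCC2 failed without DMSO replicate 2 or panobinostat 20 h replicate 1 or 2 (0.10, 0.15 and 0.13). The romidepsin change of FANCA failed without DMSO replicate 2 or romidepsin 20 h replicate 2 (-0.09 and -0.08), and was 0.11 with library size.

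Others were on opposite sides of DMSO at 5 and 20 h, given here as the difference with the 5 h and then the 20 h change. With panobinostat ATR differed by -0.72 (0.53 and -0.19, edgeR adjusted p = 1.6e-21), where the 20 h change was 0.11 with library size. PALB2 differed by -0.63 (0.25 and -0.38, edgeR adjusted p = 1.8e-12), RAD51AP1 by -0.78 (0.19 and -0.60, edgeR adjusted p = 8.8e-20), FANCE by -1.05 (0.35 and -0.70, edgeR adjusted p = 2.1e-22) and RAD51B, at low counts, by 1.89 (-0.74 and 1.15, edgeR adjusted p = 6.8e-10). The 5 h change failed for PALB2 without panobinostat 5 h replicate 2 (0.21). It failed for RAD51AP1 without DMSO replicate 1 or panobinostat 5 h replicate 2 (0.15 and 0.16). For RAD51B it failed without DMSO replicate 2 (-0.47) or panobinostat 5 h replicate 1 or 2 (-0.72 and -0.80).

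With romidepsin RBBP8 differed by -1.50 (0.12 and -1.38, edgeR adjusted p = 4.9e-48), BRIP1 by -1.11 (0.51 and -0.60, edgeR adjusted p = 5.5e-23), BRCA2 by -0.90 (0.36 and -0.54, edgeR adjusted p = 2.1e-20) and FANCL by -0.88 (0.47 and -0.42, edgeR adjusted p = 5.2e-15). With ricolinostat EXO1 differed by -0.75 (0.46 and -0.28, edgeR adjusted p = 8.1e-26), TOPBP1 by -0.41 (0.18 and -0.23, edgeR adjusted p = 7.7e-13), RAD54L by -0.51 (0.19 and -0.32, edgeR adjusted p = 9.5e-08), FANCA by -0.55 (0.39 and -0.16, edgeR adjusted p = 2.6e-15) and BLM by -0.70 (0.29 and -0.41, edgeR adjusted p = 1.4e-15). Without DMSO replicate 1 the 5 h change of TOPBP1 failed (0.13). The 5 h change of RAD54L failed whichever library was left out, and its 20 h change without ricolinostat 20 h replicate 2 (-0.24). The 20 h change of FANCA failed without DMSO replicate 2 or ricolinostat 20 h replicate 2 (-0.13 and -0.14).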

How the results depend on the processing

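Of 462 log2 changes that passed among 741, DESeq2 lost 33 and gained 12, DESeq2-type size factors 22 and 20, library size 52 and 41, and no filter 35 and 2. Fits of 2 groups alone, run on 702 of these values with 441 that passed, lost 11 and gained 20. Library size reversed 13 changes that were small on the TMM scale, and the other settings 0. At 20 h of panobinostat RAD54L became 0.25, ATR 0.11, POLQ 0.15, ATM 0.09, BRCA2 0.26, XRCC3 0.25 and BRIP1 0.02. At 20 h of romidepsin POLQ became 0.14, ATM 0.10 and FANCA 0.11. From 5 to 20 h of panobinostat CLSPN became 0.02, XRCC2 0.00 and RAD51C 0.16. Some of these passed the test in the new direction. They were RAD54L, POLQ, BRCA2 and XRCC3 at 20 h of panobinostat and POLQ at 20 h of romidepsin. RAD51C from 5 to 20 h of panobinostat passed too (edgeR adjusted p = 0.019).

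A minimum of 1.5-fold lowers counts by construction, and the shares of all genes at this minimum stand in the results. With panobinostat 2 were higher and 2 lower at 2 h, 3 and 8 at 5 h, and 5 and 17 at 20 h. With romidepsin 0 and 0 passed at 2 h, 3 and 0 at 5 h and 3 and 17 at 20 h. With ricolinostat the counts were 2 and 0 at 2 h, 1 and 3 at 5 h and 1 and 2 at 20 h. Romidepsin against panobinostat gave 4 and 2 at 2 h, 10 and 3 at 5 h and 2 and 4 at 20 h. From 2 to 5 h panobinostat gave 1 and 3, romidepsin 0 and 0 and ricolinostat 0 and 0. From 5 to 20 h panobinostat gave 2 and 11, romidepsin 2 and 21 and ricolinostat 2 and 4. The difference in the change from 2 to 20 h gave 0 and 6.

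For the other settings the cause of each shift was not tested. DESeq2 gave 2 higher at 2 h and 10 lower at 5 h of romidepsin, and 1 higher at 20 h of ricolinostat. DESeq2-type size factors gave 10 lower at 5 h of romidepsin and 1 higher at 20 h of ricolinostat. Library size gave 1 lower at 2 h and 16 higher and 2 lower at 5 h of romidepsin, and 6 higher and 12 lower at 20 h of ricolinostat. It gave 12 higher and 1 lower from 2 to 5 h of romidepsin, 3 lower from 2 to 5 h of ricolinostat, and 4 higher in the difference of changes. The counts of all genes tested with library size stand in the results. Without the filter 1 was higher at 20 h of ricolinostat and 5 from 5 to 20 h of panobinostat. The replicate numbers do not pair the samples: with the number as a replicate block 9 changes were lost and 7 gained, and 1 member instead of 2 was higher at 20 h of ricolinostat. At 5 h of romidepsin the block gave 7 higher and 8 lower in place of 9 and 6.

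Without 1 library, where the lone library is assumed to vary like the other groups, 285 of 1932 values that had passed no longer did, 39 of all 3120 newly passed and 0 reversed. Members higher and lower ranged from 7 to 7 and 16 to 20 at 2 h, 11 to 14 and 19 to 20 at 5 h and 9 to 10 and 22 to 23 at 20 h of panobinostat. With romidepsin they ranged from 1 to 3 and 1 to 1, 6 to 8 and 2 to 9, and 7 to 8 and 24 to 25. With ricolinostat they ranged from 9 to 9 and 10 to 13, 6 to 7 and 10 to 15, and 0 to 2 and 12 to 17. Romidepsin against panobinostat gave 16 to 20 and 7 to 9, 18 to 21 and 10 to 12, and 8 to 10 and 12 to 13. From 2 to 5 h the ranges were 5 to 10 and 13 to 15 with panobinostat, 3 to 5 and 1 to 6 with romidepsin and 1 to 3 and 3 to 4 with ricolinostat. From 5 to 20 h they were 6 to 7 and 20 to 23, 4 to 6 and 25 to 27, and 8 to 11 and 14 to 17. The difference of changes gave 5 to 7 and 9 to 16. Low counts limit RAD51B, RAD54B and RAD50.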
